A study of Mus musculus with 16 samples.

Results

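Nuclear-encoded mitochondrial proteins are made in the cytosol and enter through import machines in the organelle's membranes. The TOM complex of the outer membrane receives precursors, and SAMM50, the core of the SAM complex, inserts beta-barrel proteins into that membrane. Small TIM chaperones escort hydrophobic precursors through the intermembrane space, TIM22 inserts carrier proteins into the inner membrane, and TIM23 with its motor pulls presequence proteins into the matrix. The mRNAs of these machines were followed here by how fast they lost a metabolic label in leukemia cells with and without YBX1, an RNA-binding cold-shock protein. The series title links YBX1 to mRNA stability and to m6A, a methylation of adenosine in mRNA.

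Members were genes whose symbols begin with Timm or Tomm and a number, together with Samm50, Pam16 and Dnajc19. Of 28 such genes among 21177, 25 had a mean CPM (reads scaled to library size) of at least 1 and were kept, a limit passed by 9628 genes in all. Tomm20l lay closest above the limit with 1.11 CPM. Pam16 lay closest below it with 0.701 CPM, followed by Timm23 with 0.447 and Timm8a2 with 0.0304. The channel subunit Timm23 is therefore not described, and its rates jumped between 0 and 57.1% in YBX1-/- cells.

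The samples were mouse leukemia cells, labelled as bone marrow of strain C57BL/6, of genotype WT or YBX1-/-. In SLAM-seq, 4-thiouridine (4sU) taken up into new RNA appears as T-to-C changes in the reads. Both genotypes received 50 µM 4sU for 24 h, followed by a chase with 10 mM uridine, and RNA was taken at 0, 0.5, 1, 3, 6, 12, 18 and 24 h. Each genotype and time point had 1 library, 16 in all. The animals' age, the leukemia's driver and the number of animals behind a library are not stated in the labels.

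The T-to-C rate of an interval at the 3′ end of a transcript was the measurement, given here in percent. A falling rate can come from loss of labelled mRNA or from dilution by new mRNA, which cannot be told apart. There were no replicates, so the tests weigh a difference against the scatter of time points around a fitted course. How many reads stand behind a rate is unknown, and one listed at 0 can mean no reads or no converted reads. All 12 myeloid markers were present, from 17.1 to 7376 CPM, while 7 erythroid markers reached at most 1.34 CPM and 7 lymphoid markers 0.380 CPM. Of 3 megakaryocyte markers Pf4 reached 39.8 CPM, above the myeloid Cebpa at 17.1, while Itga2b and Gp9 were at 1.60 and 0.150. Of 5 stromal markers Pecam1, which blood cells also express, was at 4.60 CPM and the highest of the rest at 0.168. CPM was deposited only as a mean over libraries, so neither the loss of Ybx1 nor these markers could be compared between genotypes. The YBX1-/- library of 0 h stood apart: its tested genes had an SD of 1.71 on the log2 scale, against 0.650 in WT, and 3.64% of them were at 0, against 0.0945%. In the 12, 18 and 24 h libraries 16.2, 20.9 and 32.5% of tested genes were at 0 in WT, and 22.8, 23.7 and 14.2% in YBX1-/-.

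The 25 intervals all lay inside annotated UTRs of the mouse build GRCm38. They were 173 to 6705 bases long with a median of 898, against 1168 over all 7411 genes tested. T made up 17.8 to 33.7% of their bases, and their mean CPM ran from 1.11 to 83.6, highest for Tomm6. The intervals of Timm10b, Timm9, Tomm20l and Tomm5 also overlapped coding sequence of other transcripts. Exons of another gene overlapped those of Dnajc19 (Fxr1), Timm10b (Gm45799), Timm13 (Tmprss9), Timm17b (Gm10491), Timm8b (Nkapd1), Tomm40l (Nr1i3), Tomm6 (Gm21981) and Tomm70a (Nit2), and Timm9 and Tomm20l overlapped each other. The use of strand in counting is unknown, so the rates of these members are less certain. Gm45799 and Gm21981 lie on the same strand as Timm10b and Tomm6, so counting by strand would not separate them.

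GGACT, a common form of the sequence around m6A, was searched on the transcript strand. It occurred in 17 of 25 member intervals (68%) and in 64.2% of 7396 tested intervals with sequence. In the last 150 bases it occurred in 4 members (16%), against 11.1% of 7065 intervals of at least that length. These 4 sites are shown because they belong to members with very different label loss, with GGACT in capitals, 5′ to 3′:
Tomm7: ctgctttcctgGGACTttctgtatttt
Timm13: agtaggagaaaGGACTctgtttattgg
Timm50: tctctggctctGGACTccttgtgtgct
Timm10: gctgaagaaggGGACTtgtcacgctgg
The GRCm38 positions of the motif are chr5:23838988-23838992 on the minus strand for Tomm7, chr10:80899482-80899486 minus for Timm13, chr7:28305583-28305587 minus for Timm50 and chr2:84830142-84830146 plus for Timm10. The sites ended 44, 32, 67 and 67 bases before the interval's 3′ end, in that order. Tomm7 held 3 copies in its 869 bases and the 323-base interval of Tomm6 held 0, although these were the members that kept their label longest. Timm10, which kept least at 6 h, held 1 copy in 222 bases. The AU-rich motif TATTTAT stood in the last 150 bases of 2 members, Timm8b and Tomm22 (8%), against 5.58% of intervals. A polyadenylation signal, AATAAA or ATTAAA, stood in the last 50 bases of 19 members (76%), against 79.3%. A match is a string of letters, and methylation was not measured.

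Import transcripts lost nearly all their label within the chase in both genotypes. Over 24 members, all but Tomm20l, the median rate in WT went from 43.4, 52.2 and 45.8% at 0, 0.5 and 1 h to 24.2, 12.1 and 1.66% at 3, 6 and 12 h. The YBX1-/- median went from 31.5, 32.6 and 30.02% to 21.1, 6.01 and 1.48% at the same times. The 24 h medians were 1.07% in WT and 0.857% in YBX1-/-. Of the 25 members, 23 had a rate above 0 in at least 12 of 16 libraries and were tested; a gene that keeps label late passes this filter more easily. Tomm20 passed in 11 libraries and Tomm20l in 1, and both stay without a test. The label fell in 23 of 23 tested members in WT and in 23 of 23 in YBX1-/- (limma, Benjamini-Hochberg adjusted p under 0.05), where 94.7% and 92.6% of all genes tested fell. Members had median slopes of -0.26 (WT) and -0.23 log2 per h (YBX1-/-), beside -0.27 and -0.25 over all genes.

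The small TOM subunits Tomm6 and Tomm7 kept their label longest. Both encode short tail-anchored proteins that help TOM assemble around its channel. In WT the rate of Tomm6 was 35.0, 31.8, 31.5, 31.7, 24.8, 8.58, 5.64 and 3.11% over the 8 time points, in order of time. Its YBX1-/- rates were 19.6, 25.02, 21.6, 19.9, 17.1, 10.1, 4.87 and 3.33%. The 3 h rates lay within the range of the first 3 libraries in both genotypes. Tomm7 ran at 39.9, 45.2, 46.0, 41.5, 30.4, 13.3, 5.25 and 3.22% in WT. Its YBX1-/- rates were 23.7, 32.0, 31.2, 28.0, 21.5, 8.01, 5.11 and 1.75%. The YBX1-/- rate was below that of WT at every time point for Tomm7, and at all but 12 and 24 h for Tomm6. Another small subunit, Tomm5, lay nearer to the median of the tested genes. Its WT rates were 49.7, 51.1, 55.6, 30.2, 12.1, 1.74, 1.495 and 1.22%, and its YBX1-/- rates were 32.8, 44.8, 38.8, 23.6, 5.60, 0.647, 0.908 and 0.885%.

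**Figure D1:**
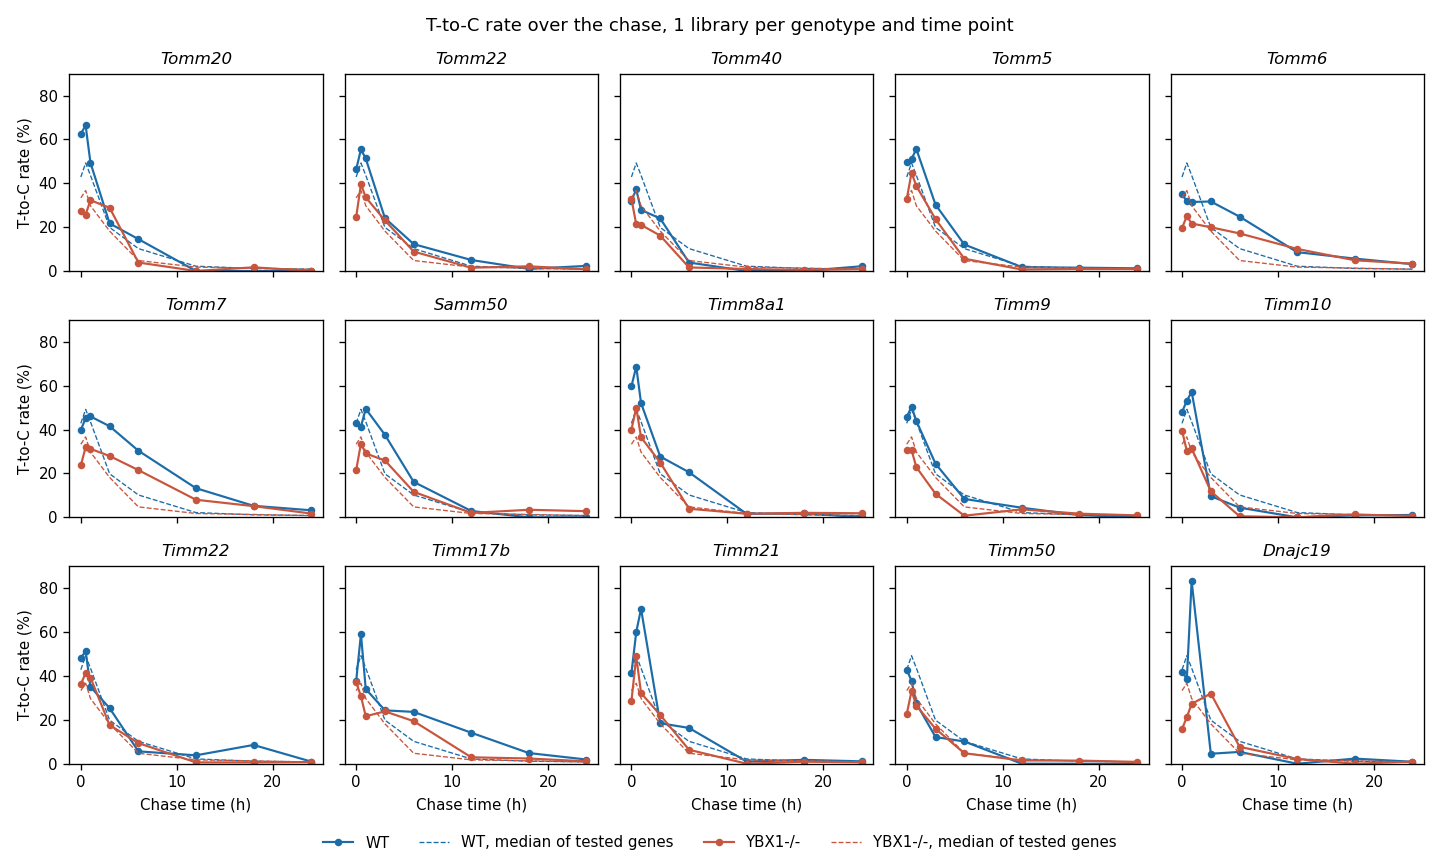
T-to-C rate in percent against chase time in hours for 15 members in WT (blue) and YBX1-/- (red), 1 library per point, with dashed lines for the median of all 7411 genes tested. Tomm6 and Tomm7 stay above the dashed lines from 3 h on, with WT rates of 24.8 and 30.4% at 6 h, while Timm10 is at 4.42%.

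The slow loss of Tomm6 and Tomm7 was noticed in the rates, and a test of each gene's slope against the library median was added afterwards. Averaged over both genotypes, Tomm6 lost label more slowly than the median by 0.11 log2 per h (SE 0.021, limma adjusted p = 0.00400) and Tomm7 by 0.08 (SE 0.023, adjusted p = 0.0403). These were the 2 of 23 tested members called slower, where 4.9% of all genes were called slower, and 0 members were called faster, where 2.42% of all were. Tomm6 passed in all 19 alternatives, with a largest adjusted p of 0.0282, while Tomm7 missed the threshold in 8 of 19. Leaving out the 0, 0.5, 1 or 3 h libraries each left 1 member called. At an unadjusted p under 0.05, limma gave 5 of 23 members and 1678 of 7411 genes, a similar share.

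Within each genotype fewer members passed. In WT 0 members were slower (2.73% of all genes) and 2 were faster (2.31%). In YBX1-/- 1 member was slower, Tomm6 (1.86%), and 0 were faster (0.742%). The slope of Tomm6 differed from the library median by 0.11 in WT (limma adjusted p = 0.0501) and by 0.12 in YBX1-/- (adjusted p = 0.0470), values that lie on either side of the threshold. The 2 faster members in WT were Samm50 at -0.16 (adjusted p = 0.0158) and Timm50 at -0.17 (adjusted p = 0.0286). Their rates were listed at 0 in the last WT libraries, and over 0 to 6 h their WT slopes relative to the median were 0.15 and 0.03, the opposite sign.

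Over the first 6 h, before most rates approach 0, the members spread to both sides of the median. In this window, also chosen after the data were seen, 7 of 23 members were slower (22.7% of all genes) and 3 were faster (15.8%). The slower ones were Tomm6 by 0.37 log2 per h (limma adjusted p = 0.000137), Tomm7 by 0.36 (adjusted p = 9.62e-05), Timm17b, Samm50, Tomm40l, Timm13 and Tomm22. The faster ones were Timm10 by -0.39 (adjusted p = 0.00213), Timm9 by -0.22 (adjusted p = 0.00656) and Timm29 by -0.13 (adjusted p = 0.0202). The median over the members was 0.04. Transcripts of respiratory complex I subunits, a set of inner membrane proteins that depend on import, had a median of 0.30 with 33 of 35 called slower and 0 faster. Those of mitochondrial ribosomal proteins had a median of 0.05 with 21 of 70 slower and 9 faster. Other genes of import and cristae organisation, named only in part at the end of the Results, had a median of 0.13. Of these, 13 of 26 were slower and 3 faster. Over 0 to 24 h, averaged over both genotypes, 11 of 35, 3 of 70 and 2 of 26 were called slower in these lists, in the same order. This stood beside 4.9% of all genes.

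The share of label kept at 6 h was taken as the 6 h rate in percent of the mean rate at 0, 0.5 and 1 h. Among 24 members Tomm6 ranked first with 75.6% in WT and 77.5% in YBX1-/-, Tomm7 next with 69.5 and 74.3%, then Timm17b with 54.2 and 65.03%. Samm50 followed in both with 36.2 and 41.4%, and Timm10 was last in both with 8.37 and 1.48%. Tomm6 exceeded 97.7% of all tested genes in WT and 97.2% in YBX1-/-. Over the 23 tested members the median was 25.4% in WT and 17.4% in YBX1-/-, beside 22.8 and 14.7% over all genes and 58.3 and 57.3% over 35 complex I subunits. The share was lower in YBX1-/- for 17 of 24 members, and for 72.5% of all genes. The order of the members was shared in part, with Spearman's rho of 0.658 and Pearson's r of 0.865 across 24 members, and rho of 0.568 across all genes. These compare genes within the same libraries and are descriptions. Interval length, T share and mean CPM ordered the members little, with rho between -0.11 and 0.24 against the share kept.

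**Figure D2:**
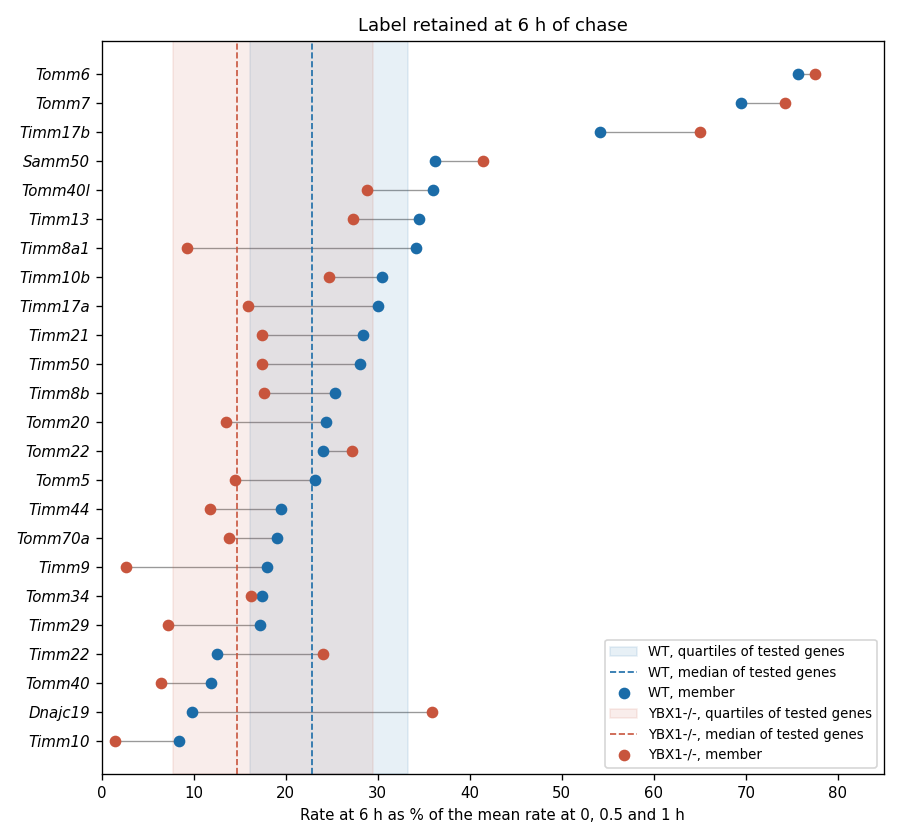
Rate at 6 h in percent of the mean rate at 0, 0.5 and 1 h for 24 members in WT (blue) and YBX1-/- (red), with shaded quartiles and dashed medians of all tested genes. Tomm6, Tomm7 and Timm17b lie far to the right in both genotypes, and Timm10 is lowest with 8.37 and 1.48%.

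Members that kept much and little label occurred within the same machine. The TOM and outer membrane group kept a median of 24.2% at 6 h in WT over 10 members, with a range of 11.9 to 75.6%. The 6 small TIM chaperones kept 27.9% (8.37 to 34.5%) and the 6 members of the TIM23 group 28.3% (9.84 to 54.2%). The 2 TIM22 members kept 12.5 and 17.2%. In YBX1-/- the medians of the groups were 21.7, 13.5, 17.4 and 15.6%, in the same order.

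The receptors and the channel of TOM kept less label at 6 h than Tomm6 and Tomm7. Tomm40, the outer membrane pore, had 32.0, 37.2, 27.8, 23.9, 3.85, 0, 0 and 2.15% in WT. The YBX1-/- rates were 32.8, 21.3, 21.02, 16.1, 1.60, 0.913, 0.443 and 0.841%. The presequence receptor Tomm20 had 62.6, 66.3, 49.4, 21.7 and 14.5% in WT up to 6 h and was listed at 0 from 12 h on. Tomm20 started far lower in YBX1-/-, with 27.3, 25.7, 32.3 and 28.8% up to 3 h, then 3.85, 0, 1.67 and 0%. Over the first 3 libraries all WT rates lay above all YBX1-/- rates, and at 3 h the order was turned. Tomm22, the central receptor, had 46.3, 55.4, 51.3, 24.1, 12.2, 5.005, 0.959 and 2.31% in WT and 24.4, 39.6, 33.6, 23.1, 8.84, 1.48, 2.12 and 0.775% in YBX1-/-. Tomm70a, a receptor for carrier precursors, Tomm34, a cytosolic cochaperone, and Tomm40l, a paralog of the channel, kept 17.4 to 36.0% in WT at 6 h. Tomm20l reached 7.69% in 1 YBX1-/- library and was listed at 0 in the other 15.

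Samm50, the outer membrane insertase, had 43.1, 41.4, 49.5, 37.6, 16.2, 2.90, 0 and 0% in WT. In YBX1-/- it had 21.4, 33.6, 29.1, 25.9, 11.6, 2.02, 3.45 and 2.81%. WT was higher up to 12 h, and YBX1-/- was higher at 18 and 24 h.

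Timm10, partner of Timm9 in the main intermembrane chaperone, lost its label early. Its WT rates were 48.0, 53.2, 57.2, 9.64, 4.42, 0, 0.901 and 1.07%, and its YBX1-/- rates were 39.5, 30.2, 31.5, 11.9, 0.500, 0, 1.304 and 0.579%. Between 1 and 3 h the WT rate dropped from above the library median to below it. Timm9 had 45.7, 50.5, 44.0, 24.5, 8.38, 4.38, 1.03 and 0% in WT, and 30.8, 30.7, 22.9, 10.7, 0.738, 3.62, 1.68 and 0.885% in YBX1-/-. Timm8a1, whose human counterpart is mutated in a deafness-dystonia syndrome, had 59.8, 68.8, 52.1, 27.7, 20.6, 1.59, 1.83 and 0% in WT. Its YBX1-/- rates were 40.0, 50.0, 36.5, 25, 3.92, 1.63, 2.06 and 1.86%. The chaperones Timm8b, Timm13 and Timm10b kept between 25.4 and 34.5% in WT at 6 h.

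Of the inner membrane channels, Timm22 had 48.2, 51.3, 35.1, 25.3, 5.63, 3.83, 8.55 and 0.980% in WT and 36.4, 41.2, 39.3, 17.6, 9.38, 0.599, 0.604 and 0.709% in YBX1-/-. The WT rate at 18 h was above those at 6 and 12 h. Its partner Timm29 kept 17.2% in WT and 7.16% in YBX1-/- at 6 h. Timm17b, of which Timm17a is the paralog in TIM23, had 37.6, 59.2, 34.1, 24.3, 23.6, 14.1, 4.86 and 1.91% in WT. In YBX1-/- it had 37.1, 30.8, 21.7, 23.9, 19.4, 2.92, 2.37 and 1.09%. Timm17a began higher, at 54.9% in WT, and kept 30.0% at 6 h against 54.2% for Timm17b.

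Timm50, the TIM23 receptor, had 42.9, 37.8, 27.5, 12.2 and 10.1% up to 6 h in WT, then 0% in all 3 later libraries. The YBX1-/- rates were 22.6, 33.2, 26.5, 15.9, 4.78, 1.47, 1.41 and 0.837%. The YBX1-/- rate was the lower one at 0, 0.5, 1 and 6 h and the higher one at 3 h and from 12 h on. Timm21, a TIM23 subunit whose yeast counterpart contacts TOM, had 41.4, 60, 70.7, 18.4, 16.3, 0.990, 1.76 and 1.07% in WT and 28.6, 48.9, 32.2, 22.2, 6.37, 0, 0.909 and 0.647% in YBX1-/-. Dnajc19, a J protein of the inner membrane, jumped between neighbouring time points. It had 41.8, 38.7, 83.3, 4.54, 5.38, 0, 2.33 and 0.893% in WT, and 15.8, 21.3, 27.3, 32.0, 7.69, 2.13, 0 and 0.962% in YBX1-/-. Its mean of 4.62 CPM was among the lower ones. Timm44, which anchors the import motor, kept 19.4% in WT and 11.8% in YBX1-/- at 6 h.

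Fits of an exponential with a constant floor gave a label half-life of 3.14 h in WT for the members' median rates, with 2.36 to 3.32 h when single time points were left out. In YBX1-/- it was 3.12 h (2.65 to 3.68 h), so the genotypes overlapped. All genes tested gave 2.76 h and 2.66 h. Tomm6 had 7.67 h (7.03 to 8.55 h) in WT and 9.70 h (8.69 to 10.5 h) in YBX1-/-, and Tomm7 had 7.51 h (6.74 to 8.10 h) and 7.90 h (6.72 to 8.68 h). For Timm17b the WT value of 5.57 h ran from 2.97 to 7.28 h depending on the time point left out. Complex I subunits gave 5.42 h in WT and 5.85 h in YBX1-/-. The half-life was longer in YBX1-/- for 12 of 24 members. The ranges of the genotypes lay apart for Timm9, shorter in YBX1-/- (2.86 h and 1.71 h), and for Dnajc19 (2.32 h and 6.00 h), Tomm20 (2.25 h and 3.96 h) and Tomm6, longer in YBX1-/-. These ranges are no test. Half-lives were not fitted to every tested gene, so neither the longer half-lives nor the ranges apart have a share over all genes beside them. A straight line through the log values, without a floor, ranked Samm50 among the shortest in WT at 2.39 h, where the floor model gave 4.40 h. The straight line also turned the direction for Timm9, with 2.87 h in WT and 5.15 h in YBX1-/-, and for Dnajc19, with 3.93 and 3.61 h. Tomm6 stayed longer in YBX1-/- on that line, with 6.71 and 8.50 h. An exponential without a floor kept the first direction, with 2.86 and 1.85 h for Timm9 and 2.32 and 6.00 h for Dnajc19.

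**Figure D3:**
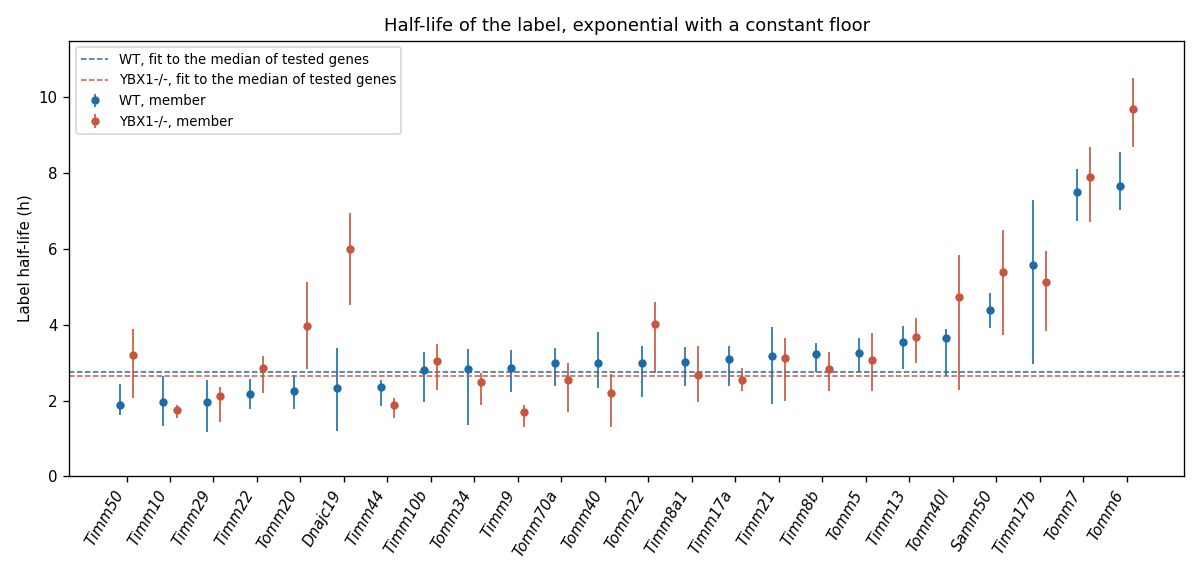
Label half-life in hours, from an exponential with a constant floor, for 24 members in WT (blue) and YBX1-/- (red), with bars for the range over fits that leave out 1 time point each. Tomm6 and Tomm7 lie between 7.51 and 9.70 h, above the dashed fits to the median of all tested genes at 2.76 and 2.66 h.

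The loss of YBX1 was not accompanied by a change in label loss that passed the test in any import transcript. The decay rate difference (YBX1-/- minus WT, on values with the library median subtracted, positive where YBX1-/- lost label more slowly) was called in 0 of 23 members by limma, where 0.108% of all genes were called. At an unadjusted p under 0.05, limma gave 4 members and 929 of all genes. The coefficient was positive in 11 of 23 members (52.4% of all genes), and the median was -0.001, beside 0.004 over all genes. Samm50 had the smallest p, with 0.24 log2 per h (SE 0.045, limma adjusted p = 0.107), followed by Timm50 with 0.18 (SE 0.055, adjusted p = 0.209). Both were at 0% in the WT libraries of 18 and 24 h, where 20.9 and 32.5% of all tested genes were at 0 as well, and the part of these zeros in the difference was not tested. Leaving out the 12 h time point alone brought Samm50 past the threshold, with a limma adjusted p of 0.0212. In that run 204 of 7411 genes were called, against 8 in the reported fit. Over the 18 alternatives the adjusted p of Samm50 reached 0.891. Among members with a negative coefficient, those of smallest p were Timm22 at -0.10 (SE 0.058, adjusted p = 0.533) and Timm17b at -0.05 (SE 0.031, adjusted p = 0.551), neither under an unadjusted 0.05. For Tomm6 the 95% interval of the difference ran from -0.04 to 0.06 log2 per h and for Tomm7 from -0.06 to 0.02, among the narrowest of the members. Dnajc19 and Timm44 had intervals from -0.30 to 0.22 and from -0.28 to 0.24.

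**Figure D4:**
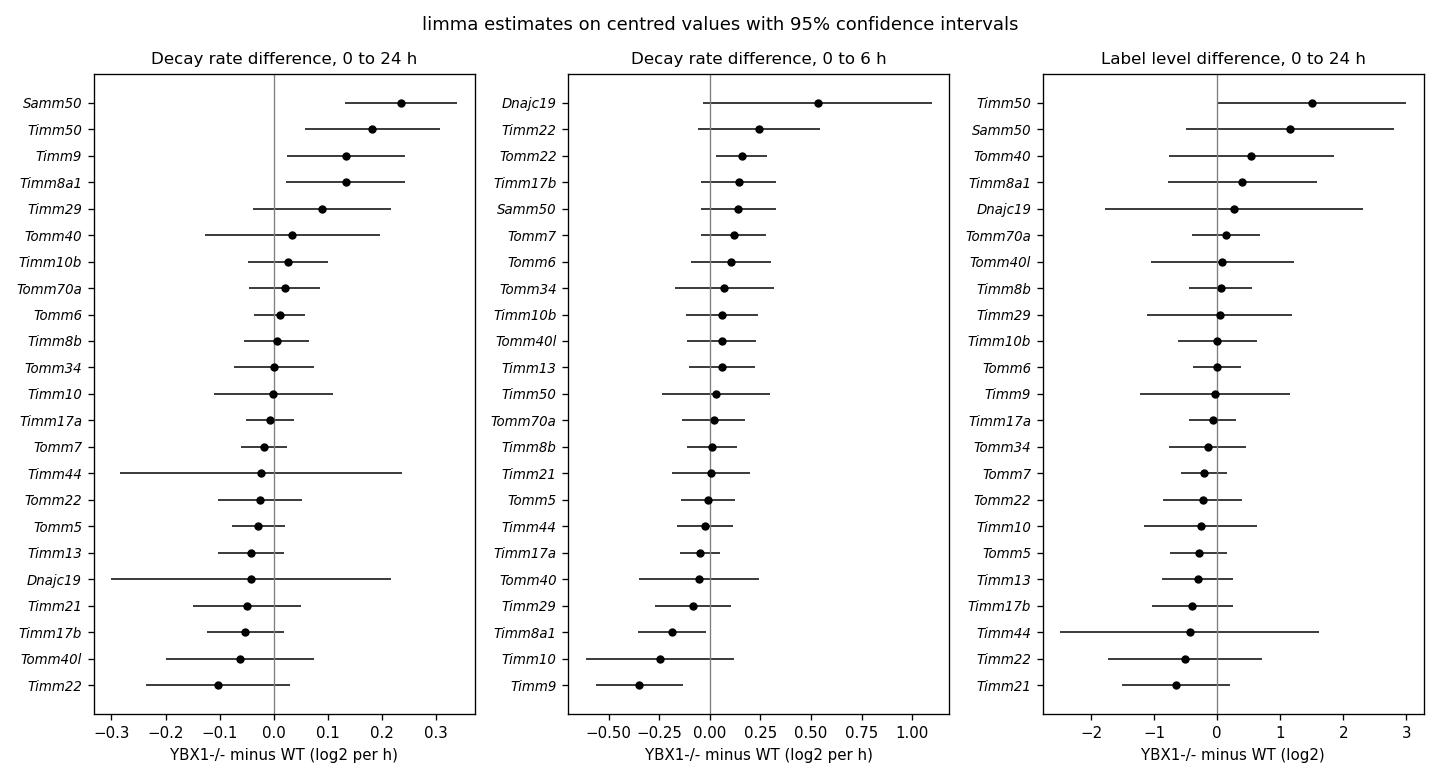
limma estimates of the genotype difference, YBX1-/- minus WT, with 95% confidence intervals for the 23 tested members: decay rate over 0 to 24 h and over 0 to 6 h in log2 per h, and label level in log2. Samm50 leads the first panel at 0.24 and Timm9 closes the second at -0.35, and no member passed the adjusted threshold.

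Over 0 to 6 h, 0 of 23 members were called (0.0% of all genes), with 3 members and 1229 of all genes at an unadjusted p under 0.05 in limma. The coefficient was positive in 15 of 23 members (55.8% of all genes), with a median of 0.03 beside 0.02. Timm9 had -0.35 (SE 0.085, limma adjusted p = 0.198) and Timm8a1 -0.19 (SE 0.066, adjusted p = 0.276). Both had the opposite sign over 0 to 24 h, at 0.13 each. Tomm22 had 0.16 (SE 0.050, adjusted p = 0.247) and Dnajc19 0.53 (SE 0.224, adjusted p = 0.319).

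Before centring, the label level was lower in YBX1-/- for nearly all members early in the chase, as it was for most genes. The rate was below that of WT in 22, 24 and 23 of 24 members at 0, 0.5 and 1 h, against 75.04, 85.5 and 87.4% of all genes. At 6 h this held for 22 of 24 members and 86.0% of genes, and at 18 h for 11 of 24 and 41.0%. After centring, the label level difference was called in 0 of 23 members (0.0% of all genes), and 1 member and 415 of all genes had an unadjusted p under 0.05 in limma. The coefficient was positive in 10 of 23 members (50.7% of all genes), and the median was -0.04 beside 0.01. Timm50 had 1.51 log2 (SE 0.67), Samm50 1.15 (SE 0.738), Timm21 -0.66 (SE 0.382) and Tomm5 -0.30 (SE 0.20), each with a limma adjusted p of 0.779.

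A list of 30 other genes of mitochondrial import, cristae organisation and precursor processing held 26 that were tested. Among these, 0 passed for the decay rate difference (0.108% of all genes), 0 for its 0 to 6 h form (0.0%) and 0 for the level (0.0%). Over 0 to 6 h the coefficient was positive in 20 of 26 and negative in 6, with a median of 0.08. It was positive in 55.8% of all genes, with a median of 0.02, and in 33 of 35 complex I subunits, with a median of 0.09. Mtch2, an outer membrane insertase, had 0.22, Immt, the core of the cristae-organising MICOS complex, 0.17, the inner membrane peptidase Immp1l 0.29 and Dnlz, a partner of mitochondrial Hsp70, 0.33, with limma adjusted p between 0.223 and 0.245. Over 0 to 24 h Chchd6 had 0.14, Immp2l 0.25, Dnlz 0.10 and Immt -0.07. The level coefficient was 2.06 for Dnlz, 1.90 for Immp2l, 0.90 for Chchd6 and 0.36 for Hspa9, the matrix Hsp70 that drives import, each with an adjusted p of 0.779.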

How the data were processed

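The authors deposited T-to-C rates per interval and library as a fraction from 0 to 1, with mean CPM, mean coverage signal on Ts, the T number and the length of each interval, per the file headers. The conversion counter, the denominator of the rate and the use of strand are not given in the sources used here. CASAVA, HISAT2 2.1.0 and GRCh38 stand in the submitters' processing notes. The deposited T number matched the GENCODE M21 sequence of mouse GRCm38 in 7396 of 7396 tested intervals with sequence, so positions are in that build, counted from 1, and printed sequences come from those transcripts.

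For each gene the interval of highest mean CPM was used. Rates in percent were analysed as log2(rate + 0.1), which understates changes of low rates, for genes above 0 in at least 12 of 16 libraries (7411 of 21177). A rate listed at 0 entered as log2(0.1), so late zeros can steepen a fitted loss. A straight line over hours was fitted per genotype with limma 3.58.1 (R 4.3.3, trended variance). On values minus the library median it fitted the genotype by hours term (decay rate difference) and the genotype term (level), with time point as a factor. Benjamini-Hochberg adjustment covered all tested genes, with a threshold of 0.05. The slope relative to the library median was added after the data were seen. Floor half-lives were fitted with scipy 1.17.1. The fits were also run on simulated data with independent normal scatter per gene. Those data lacked the zeros of the late libraries, so they do not measure the error of the calls made here.

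The members and lists were chosen with earlier results of these data known. Named with time courses were Tomm20, Tomm40, Timm10, Samm50 and Dnajc19, the 2 members of smallest p in each direction per genotype comparison, and the 2 longest and 2 shortest log-linear half-lives in WT. Of the other import genes, up to 4 of smallest p per comparison were named. Alternatives changed the added value, filters, interval, trend, centring and time points.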

Additional observations from a re-analysis of the deposited data

How the results depend on the processing

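The 23 members called as losing label became 13 in each genotype when a rate above 0 was required in all libraries, because 13 were then tested. Over all genes, 2805 of the 2836 then tested were called in each genotype. With the library median subtracted the slope is relative to that median: 2 members were called in WT, both faster than it, and 1 in YBX1-/-, Tomm6, which was slower. Over all genes, 373 of 7411 were called in WT and 193 in YBX1-/-, in either direction. No alternative run brought a member past the threshold for the 0 to 6 h decay rate difference or for the level. For the 0 to 24 h difference, leaving out single time points gave 0 to 1 members, Samm50 being the 1 without 12 h. Over all genes these runs gave 0 to 204 of 7411, with 204 without 12 h, against 8 in the reported fit. Over 0 to 12 h, 268 genes and 0 members were called. The 0 to 6 h difference without 3 h was called in 275 of 7411 genes and 0 members. For the slope relative to the library median, averaged over genotypes, the 2 members became 1 with an added value of 0.5, 1 without a trend, 1 without the YBX1-/- 0 h library, 14 with a rate above 0 in at least 1 library, 9 over 0 to 12 h, 10 over 0 to 6 h, and 1 to 4 with single time points left out. The count over all genes moved too, from 542 of 7411 to 341, 571 and 373 of 7411, 6177 of 13422, 2611 and 2859 of 7411, and 217 to 1364 of 7411, in the same order. With the filter of 1 library, the subtracted median changed and each member's own rates did not. The cause of the moves was not tested.

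Slopes relative to the median that were called in the reported fit or in the alternative turned in sign in these cases. In WT, Dnajc19 had -0.37 over 0 to 12 h, Samm50 0.041 over 0 to 12 h and 0.15 over 0 to 6 h, Timm50 0.027 over 0 to 6 h, and Timm17a and Timm21 0.15 each with a rate above 0 in at least 1 library. In YBX1-/-, over 0 to 6 h Timm13 had 0.17, Timm29 -0.17 and Timm9 -0.39, and over 0 to 12 h Timm29 had -0.14. Averaged over genotypes, Samm50 had 0.22 over 0 to 6 h, and with the filter of 1 library Timm17a had 0.12, Timm21 0.10 and Tomm5 0.12. Under the filter of 1 library these turns come with a changed library median, as the members' own rates are the same. Averaged over genotypes, 12812 of 13422 genes then had a positive slope. Sign changes of values never called are not listed. The loss of label in YBX1-/- missed the threshold in 1 of 17 alternatives each for Timm10 and Tomm40.

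The half-life of the members' median rates without 0 h was 2.36 h in WT and 2.65 h in YBX1-/-. With the 1 h library alone as start, the YBX1-/- median share kept at 6 h was 19.8%. The genotype fits had time point as a factor, which pairs the WT and YBX1-/- libraries of each time point. Unknown depth limits all rates, most of all those near 0.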
